A study of Mus musculus with 2 samples.

Results

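Among the CD45+ cells of MC38-OVA tumours, 103 of 18460 cell barcodes met a rule for dendritic cells resembling conventional dendritic cells type 2 (cDC2): 44 of 8694 barcodes from mice on a control diet and 59 of 9766 barcodes from mice on a sitagliptin diet. The rule read unique molecular identifier (UMI) counts per barcode. It asked for 3 or more UMIs of Cd209a, Clec10a, Mgl2, Kmo, Plet1 and Ccl17 together and 1 or more of Flt3, H2-Oa and H2-DMb2 together. It also asked for none of Ccr7, none of Xcr1 and Clec9a, none of Cd3d, Cd3e and Trac, and at most 3 of C1qa, C1qb, C1qc and Apoe together. Within this set, barcodes with Cd209a (called Cd209a+ here) were set beside barcodes with Plet1 or Kmo and no Cd209a (Plet1/Kmo). Measured values thus chose the members, so their levels of the rule genes, and their differences from other populations and between the subsets, are descriptions without a test.

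Each diet had 1 library, made with a droplet 5′ kit from a tumour cell suspension enriched for CD45+ cells on magnetic beads. The mice were wild type and bore tumours of MC38-OVA, colon carcinoma cells of the mouse that make the model antigen ovalbumin; sitagliptin is a drug taken by mouth that blocks DPP4 (CD26), a peptidase that trims chemokines among other substrates. The sources used here do not give age, sex, tumour stage or how many mice were pooled per library. With 1 library per diet there is no replicate error: intervals are 95% counting intervals that cover counting error only, and no difference between diets was tested.

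cDC2 are the conventional dendritic cells that take up antigen and present it on MHC class II, mainly to CD4 T cells. They depend on the cytokine receptor Flt3 and on transcription factors such as Irf4, and in mice many carry C-type lectins such as Cd209a, Clec10a and Mgl2. Populations that share lectins and MHC class II genes with them include monocyte-derived cells and macrophages, and after maturation dendritic cells turn on Ccr7 and leave for the lymph node.

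The cDC2-like barcodes made up 0.506% (0.368 to 0.679, exact Clopper-Pearson) of control barcodes and 0.604% (0.460 to 0.779) of sitagliptin barcodes, a ratio of 1.19 (0.809 to 1.76). Among the dendritic cell barcodes of the libraries, that is these barcodes with the mature migratory dendritic cells (62 and 64 barcodes) and cDC1 (6 and 17 barcodes) found by like rules, they were 39.3% and 42.1%. Neither ratio left out 1. Control members carried a median of 4718 UMIs (2075 to 20197) and sitagliptin members 6193 UMIs (2103 to 32230). Their UMIs summed to 278954 and 430053, and levels are given as CPM, the UMIs of a gene relative to the summed UMIs of its population. Both libraries had 132 barcode sequences in common, and 1 member in each library had such a barcode. Where values come in pairs, the control library stands first.

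A further 60 control and 128 sitagliptin barcodes met every other step and failed only the limit on C1q genes and Apoe, which are macrophage genes. Barcodes just outside that limit, with 4 to 10 such UMIs, numbered 11 and 14 and had Cd74 at 20533 and 15751 CPM and Lyz2 at 3400 and 2373 CPM. Those just inside, with 1 to 3, numbered 20 and 32 and had Cd74 at 21932 and 19361 CPM and Lyz2 at 1321 and 2047 CPM. On the marker sum, 9 and 11 barcodes stood at 2 and missed it, while 10 and 5 stood at 3 and met it.

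Mgl2, a galactose-binding lectin, was the most widely detected rule gene, with a UMI in 31 of 44 control and 46 of 59 sitagliptin members. Ccl17, a chemokine that draws CCR4+ T cells, was found in 21 and 26 members, and Clec10a, a lectin closely related to Mgl2, in 17 and 26. Cd209a, a DC-SIGN family lectin, was found in 19 and 21, Kmo, an enzyme of the kynurenine pathway, in 15 and 23, and the surface protein gene Plet1 in 11 and 13. In 9 control and 13 sitagliptin members a single rule gene of these 6 carried the marker sum, most often Mgl2 (4 and 10 members). Clec10a and Mgl2, and likewise the Cd209 genes, are near copies of each other, so how reads were split between them is uncertain.

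**Figure D1:**
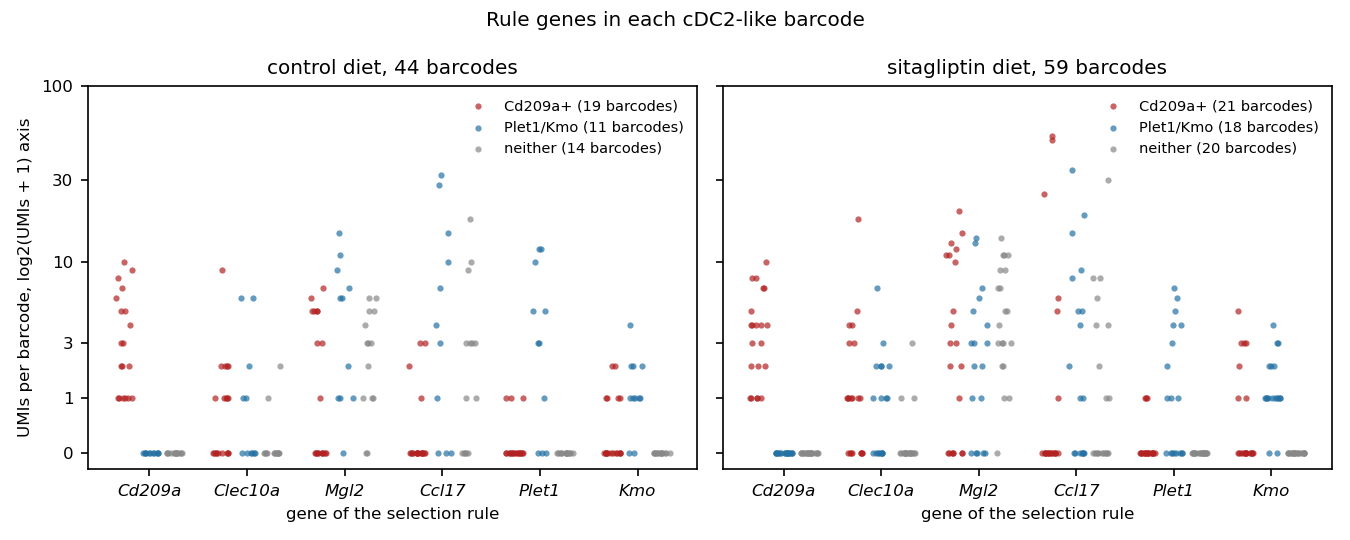
UMIs of the 6 marker genes of the rule in each cDC2-like barcode (points, spread sideways for visibility), on a log2(UMIs + 1) axis, for the control library (44 barcodes) and the sitagliptin library (59 barcodes). Colour marks the subset; Cd209a is at 0 outside the Cd209a+ barcodes, and Plet1 and Kmo are at 0 in barcodes of neither subset, by construction.

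By the second part of the rule, 19 control and 21 sitagliptin members were Cd209a+ (43.2% and 35.6%, ratio 0.824 with an interval of 0.509 to 1.34). The Plet1/Kmo subset held 11 and 18 members (25% and 30.5%, ratio 1.22, 0.643 to 2.32), and 14 and 20 members belonged to neither. The plot of rule genes shows the overlap: 7 control and 9 sitagliptin Cd209a+ barcodes also had Plet1 or Kmo. Ccl17 was detected in 8 of 11 and 11 of 18 Plet1/Kmo barcodes beside 4 of 19 and 6 of 21 Cd209a+ barcodes.

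Genes outside the rule were read to check the label. Cd74, the invariant chain that guides MHC class II to its peptides, was at 22100.4 and 21190.4 CPM in the members, 10616 and 9978 CPM in the mature migratory dendritic cells and 7715 and 6413 CPM in macrophages (2211 and 2719 barcodes with 10 or more UMIs of C1q genes and Apoe). Irf4 was at 53.8 and 112 CPM beside 13.3 and 28.7 CPM in mature migratory dendritic cells and 4.24 and 6.40 CPM in macrophages. Itgax, which encodes CD11c, was at 64.5 and 88.4 CPM beside 16.7 and 18.3 and, in macrophages, 21.6 and 21.1 CPM. Both were thus higher in the cDC2-like barcodes than in either population, in both libraries. In cDC1 (6 and 17 barcodes) Cd74 was above the members, at 24907.2 and 27872.5 CPM. Irf4 was at 46.4 and 7.28 CPM in cDC1, near the members in the control library, and Itgax at 0 and 51.0 CPM. Zbtb46, a transcription factor of conventional dendritic cells, was at 32.3 and 34.9 CPM, above macrophages (2.09 and 2.06 CPM) and below mature migratory dendritic cells (123 and 159 CPM). Sirpa, a surface receptor of cDC2 and macrophages, was at 78.9 and 83.7 CPM, and Clec4a4, a lectin of a splenic cDC2 subset, had 0 and 1 UMI in all members together.

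Markers of other populations were then read as lists. The 10 monocyte genes summed to 1072 and 769.7 CPM in the members, beside 477 and 248 CPM in mature migratory dendritic cells, 817 and 887 CPM in macrophages and 1150.2 and 1601 CPM in a set chosen by 3 of them, Ly6c2, Plac8 and Vcan. They were found in 39 of 44 and 50 of 59 members, so monocyte gene RNA was common in the cDC2-like barcodes; Treml4 was at 0. Of the defining genes of mature migratory dendritic cells, Il12b was at 0 in both libraries (3 counts would be 10.8 and 6.98 CPM) and Fscn1 at 10.8 and 16.3 CPM, beside 971 and 768 CPM in that population. Of 10 genes of each list, 6 and 8 mature dendritic cell genes and 7 and 6 cDC1 genes had any UMI in the members. Among cDC1 genes outside the rule, Cadm1 had 1 and 0 UMIs and Tlr3 was at 0, as it was in the 6 control cDC1 barcodes. Others of that list were present, such as Naaa at 168 and 184 CPM, beside 278 and 590 CPM in cDC1. Wdfy4 was at 68.1 and 86.0 CPM, beside 232 and 554 CPM in cDC1. The 10 cDC1 genes summed to 387 and 419 CPM in the members and 2365 and 3132 CPM in cDC1. The macrophage gene Ms4a7 was at 3.58 and 2.33 CPM, beside 393 and 392 CPM in macrophages, and Adgre1, which encodes F4/80, at 7.17 and 6.98 CPM beside 54.7 and 58.4 CPM. The 14 macrophage markers nevertheless summed to 4524 and 3802 CPM in the members, beside 1101 and 329 CPM in mature migratory dendritic cells and 19776 and 16416 CPM in macrophages. Their summed level ran to 27129 and 20647 CPM in single members, with medians of 1072 and 1063 CPM over members.

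The barcodes of neither subset carried most of that signal. Lyz2, the lysozyme gene of monocytes and macrophages, was at 3447 and 3408 CPM in them, 865 and 1003 CPM in Cd209a+ and 542 and 297 CPM in Plet1/Kmo barcodes. Spp1, the osteopontin gene, was at 5529 and 2596 CPM in them, 521 and 114 CPM in Cd209a+ and 1680.1 and 144 CPM in Plet1/Kmo barcodes, with up to 293 UMIs in 1 barcode. Flt3 was detected in 1 of 14 and 1 of 20 barcodes of neither subset, 9 of 19 and 12 of 21 Cd209a+ and 2 of 11 and 3 of 18 Plet1/Kmo barcodes. Flt3 is among the genes the rule read. For the 34 barcodes of neither subset these values go partly against the cDC2 label, and they are called by the rule alone.

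A few members carried RNA of other cells. With 3 or more UMIs of the plasmacytoid dendritic cell genes Siglech, Ccr9, Klk1, Cox6a2 and Ly6d together, or 5 or more of the stroma genes Sparc, Col1a1, Col1a2 and Col3a1 together, 5 control and 4 sitagliptin members were called mixed, and 8 of these 9 were Cd209a+. They held 27% of the members' UMIs under the control diet and 9.92% under sitagliptin. The counts of the diet and subset contrasts are given with and without them; without them 39 and 55 members remained, of which 14 and 18 were Cd209a+ and 11 and 18 Plet1/Kmo.

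A group of 42 genes was at least 2-fold higher in the cDC2-like barcodes than in mature migratory dendritic cells, macrophages and the set chosen by Ly6c2, Plac8 and Vcan, in both libraries and with intervals that left out 1. The background shares of genes this much higher were 4.40% of 6771 tested against mature migratory dendritic cells (4.65% lower), 2.09% of 13083 against macrophages (1.66% lower) and 4.56% of 13019 against the third set. Since the rule set these contrasts, nothing is read from the counts. The group held MHC class II genes, such as H2-DMb1, part of the peptide editor H2-DM, at 509 and 437 CPM, beside 70.0 and 47.0 CPM in mature migratory dendritic cells and 187 and 159 CPM in macrophages. It also held Il1r2, the decoy receptor for interleukin-1, at 1014 and 686 CPM, beside 177 and 204 CPM in mature migratory dendritic cells and 62.8 and 54.6 CPM in macrophages. The others included Irf4, Itgax, Cd24a, the arylhydrocarbon receptor gene Ahr, the NK-type receptors Klrb1b and Klrd1, the lipoprotein lipase gene Lpl and the lectin Clec4b1. cDC1 were not part of this comparison and stood above the members for some of these: H2-DMb1 was at 835 and 670.0 CPM in cDC1, Cd24a at 232 and 306 CPM beside 57.4 and 93.0 CPM and Ahr at 371 and 495 CPM beside 183 and 214 CPM.

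**Figure D2:**
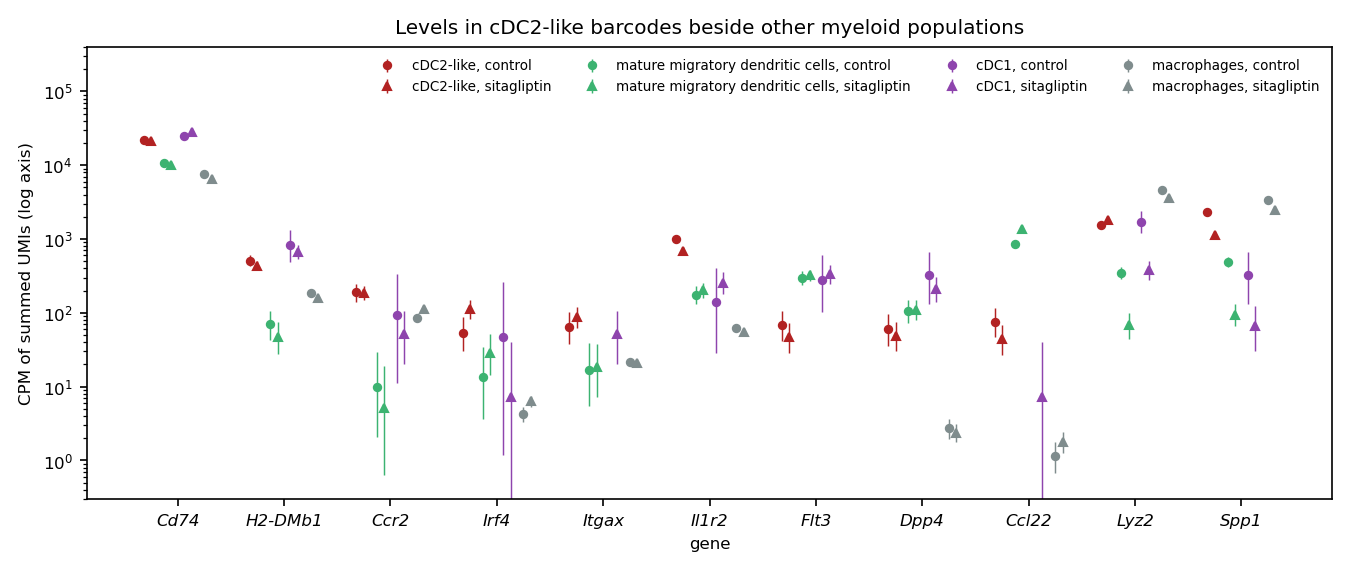
Levels of 11 genes as CPM of summed UMIs on a log axis in cDC2-like barcodes (44 control, 59 sitagliptin), mature migratory dendritic cells (62, 64), cDC1 (6, 17) and macrophages (2211, 2719); circles are the control and triangles the sitagliptin library, bars are exact Poisson 95% counting intervals, and a level of 0 is not drawn. Il1r2 is highest in the cDC2-like barcodes and Ccl22 in the mature migratory dendritic cells, in both libraries; Flt3 is at 0 in macrophages by their rule.

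Against mature migratory dendritic cells, the genes ranked highest by the lower bound of their interval included Ccr2, the receptor that brings monocytes and their kin into tissue (190.0 and 188 CPM beside 10.01 and 5.22 CPM), and Alox5ap, needed for leukotriene synthesis (713 and 677 CPM beside 100.1 and 80.9 CPM). Lower in the cDC2-like barcodes were Ccl5, a T cell chemokine (82.5 and 74.4 CPM beside 2291 and 3002 CPM), and Fabp5, a fatty acid carrier (96.8 and 105 CPM beside 2048 and 2276 CPM). Against macrophages, Kynu, an enzyme of tryptophan breakdown, was higher (60.9 and 46.5 CPM beside 2.22 and 2.24 CPM), as was Ccl22, a CCR4 ligand like Ccl17 (75.3 and 44.2 CPM beside 1.14 and 1.78 CPM). The macrophage chemokine genes Pf4 (17.9 and 37.2 CPM beside 1385 and 1094 CPM) and Ccl8 (3.58 and 6.98 CPM beside 426 and 379 CPM) were lower. Against cDC1, which had only 6 and 17 barcodes and where 0.703% of 5266 genes were higher and 0.836% lower, S100a6 was higher (4284 and 4102 CPM beside 1669.8 and 830.3 CPM) and the cDC1 adhesion gene Cadm1 lower (3.58 and 0 CPM beside 186 and 335 CPM).

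Dpp4, the target of sitagliptin, was detected in 13 of 44 control and 15 of 59 sitagliptin members, at 60.9 CPM in control and 48.8 CPM in sitagliptin. Macrophages had 2.72 and 2.38 CPM, mature migratory dendritic cells 107 and 109.6 CPM and cDC1 325 and 211 CPM. The members stood above macrophages and below cDC1 in both libraries. Within the members, Dpp4 was at 56.1 and 66.9 CPM in Cd209a+, 111 and 76.6 CPM in Plet1/Kmo and 24.4 and 17.0 CPM in the barcodes of neither subset. Between diets its ratio, sitagliptin over control, was 0.801 (0.403 to 1.62), so a difference was not detectable at this depth.

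To see how the cDC2-like barcodes vary among themselves, Cd209a+ were set beside Plet1/Kmo barcodes in each library. Cd209a+ barcodes had more Ccr2, Crip1, Tmem176b and Cd209c RNA, and Plet1/Kmo barcodes more Cst3, Il1r2, Creb5 and Ifitm1 RNA, in both libraries. Of 3562 genes tested (20 or more UMIs, rule genes left out), 3% were at least 1.5-fold higher in Cd209a+ and 2.33% lower, with intervals leaving out 1 in each library; such genes are called past the fold. Without the mixed barcodes these shares were 1.85% and 1.25% of 2643 genes, that is 49 and 33 genes. With all barcodes the 10 highest-ranked genes were Nedd4, Cald1, Timp3, Ccn1, Cavin3, Ear2, Tafa1, Hist1h1b, Fosl1 and Cd209c, of which Ear2, a ribonuclease of a family of near copies, and Cd209c were still among the 10 without the mixed barcodes. CPM values of this contrast are without the mixed barcodes.

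Crip1, a small LIM protein, stood at 6845 CPM in Cd209a+ beside 2027 CPM in Plet1/Kmo barcodes of the control library, and 7579.6 beside 2126 CPM in the sitagliptin library. Ccr2 stood at 384 CPM in Cd209a+ beside 55.5 CPM in Plet1/Kmo barcodes of the control library, and 288 beside 38.3 CPM in the sitagliptin library; the ratios were 6.91 (2.30 to 27.9) and 7.53 (2.67 to 29.3). Wfdc17, a secreted protein of activated phagocytes, stood at 808 CPM in Cd209a+ beside 153 CPM in Plet1/Kmo barcodes of the control library, and 946 beside 192 CPM in the sitagliptin library. Each of these ratios pointed the same way in both libraries with an interval above 1. That follows from the ranking, which took genes by the weaker library's bound, and is no separate support.

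Tmem176b, an endosomal membrane protein found in dendritic cells, had a UMI in 11 of 19 and 13 of 21 Cd209a+ barcodes and in 1 of 11 and 2 of 18 Plet1/Kmo barcodes, mixed ones included. After thinning every member to 2000 UMIs the shares were 31.6% and 33.3% beside 0% and 5.56%. T cell barcodes, chosen by their Cd3d, Cd3e and Trac RNA, numbered 202 and 351 and had medians of 3949 and 3737 UMIs. Tmem176b was found in 2.48% and 3.42% of them. Its neighbour Tmem176a was likewise at 182 CPM in Cd209a+ beside 13.9 CPM in Plet1/Kmo barcodes of the control library, and 261 beside 9.58 CPM in the sitagliptin library. Retnla also ranked high, but its UMIs came from 1 Cd209a+ barcode in each library.

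Of 8 measured C-type lectin genes outside the rule, 4 were past the fold higher in Cd209a+ barcodes and 0 lower; with the mixed barcodes it was 1 higher, Cd209c, and 1 lower, Clec4n. They were Cd209c, a near copy of Cd209a, whose reads may be split with it, Clec4a2, an inhibitory lectin, Clec4b1 and the mannose receptor gene Mrc1. Clec4a2 was at 162 CPM in Cd209a+ beside 27.8 CPM in Plet1/Kmo barcodes of the control library, and 81.1 beside 9.58 CPM in the sitagliptin library. Mrc1 was at 343 CPM in Cd209a+ beside 111 CPM in Plet1/Kmo barcodes of the control library, and 451 beside 28.7 CPM in the sitagliptin library. Past the fold or not, 4 of the 8 lectins were higher and 2 lower in Cd209a+ barcodes in both libraries, mixed barcodes left out. The list's median log2 ratio was 2.08 for control and 1.97 for sitagliptin, beside 0.026 and 0.050 over all genes.

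Higher in Plet1/Kmo barcodes was Cst3, the cystatin C gene, a protease inhibitor used as a marker of dendritic cells. It ran from 61 to 188 UMIs with a median of 119 per barcode in the control library, beside from 0 to 25 UMIs with a median of 9 in Cd209a+ barcodes. These control ranges did not overlap, but the UMIs were not scaled for depth, with medians of 5650 UMIs in Plet1/Kmo and 3552 in Cd209a+ barcodes. Cst3 was named for its rank in this contrast, and how many other genes had separate ranges was not counted. In the sitagliptin library the ranges were from 0 to 231 UMIs with a median of 64.5 and from 1 to 79 UMIs with a median of 16, and they overlapped. Summed, Cst3 stood at 2888 CPM in Cd209a+ beside 18481 CPM in Plet1/Kmo barcodes of the control library, and 4479 beside 13425 CPM in the sitagliptin library, mixed barcodes left out.

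Il1r2 had a UMI in 11 of 11 and 18 of 18 Plet1/Kmo barcodes and in 9 of 19 and 12 of 21 Cd209a+ barcodes. Creb5, a transcription factor of the CREB family, was likewise found in 11 of 11 and 18 of 18 Plet1/Kmo barcodes, beside 6 of 19 and 10 of 21. Thinned to 2000 UMIs, the shares for Il1r2 were 100% and 100% in Plet1/Kmo and 36.8% and 47.6% in Cd209a+ barcodes, and for Creb5 63.6% and 72.2% and 21.1% and 14.3%. Every Plet1/Kmo barcode thus held both genes at full depth. Unthinned, T cell barcodes held Il1r2, which regulatory T cells can express, in 18.8% and 17.1% and Creb5 in 20.8% and 14.2% of cases. Creb5 was at 105 and 43.7 CPM in them and, with all barcodes, at 208 and 201 CPM in Cd209a+ barcodes.

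Ifitm1, an interferon-induced membrane protein, was at 626 CPM in Cd209a+ beside 2333 CPM in Plet1/Kmo barcodes of the control library, and 649 beside 2825 CPM in the sitagliptin library. Fgl2, a secreted fibrinogen-like protein with immunosuppressive activity, was at 80.8 CPM in Cd209a+ beside 639 CPM in Plet1/Kmo barcodes of the control library, and 144 beside 517 CPM in the sitagliptin library. Serpinb9, an inhibitor of granzyme B, was found in 7 of 11 and 11 of 18 Plet1/Kmo barcodes beside 0 of 14 and 1 of 18 Cd209a+ barcodes. The stem cell antigen gene Ly6a and the cytokine gene Mif were also lower in Cd209a+ barcodes. Arg1 and Dcstamp ranked among the lowest too, but Arg1 came from only 4 Plet1/Kmo barcodes in each library, and in the control library 36 of its 40 UMIs lay in 1 of them.

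Over all genes, 678 of 2643 were lower in Cd209a+ barcodes in both libraries without the mixed barcodes, and 858 of 3562 with them. Of 12 measured MHC class I genes, 9 were lower in both libraries and 1, the immunoproteasome subunit Psmb9, was past the fold; with the mixed barcodes it was 10 of 13 and again Psmb9. Of 18 glycolysis and hypoxia genes, 14 were lower in both libraries and 4 past the fold: Aldoa, Bnip3, Gapdh and Pgk1. With the mixed barcodes 10 of 18 were lower in both and Aldoa alone was past the fold. Bnip3, a mitophagy receptor induced by hypoxia, was at 60.6 CPM in Cd209a+ beside 292 CPM in Plet1/Kmo barcodes of the control library, and 54.1 beside 297 CPM in the sitagliptin library. The medians of the glycolysis list without mixed barcodes were -1.28 and -0.47. For MHC class II, 5 of 11 genes were lower in both libraries and 0 past the fold in either direction, with medians of -0.47 and 0.053; with the mixed barcodes it was 10 of 11, with H2-Ob past the fold lower. Of 11 type I interferon genes 2 were past the fold lower in Cd209a+ barcodes, among them Isg15, a ubiquitin-like protein, and of 12 chemokines Ccl4, Ccl9 and Cxcl10 were higher. With the mixed barcodes 0 of 13 of these interferon genes were past the fold, and of 13 chemokines Ccl4 and Ccl9 were higher and Ccl22 and Cxcl16 lower.

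**Figure D3:**
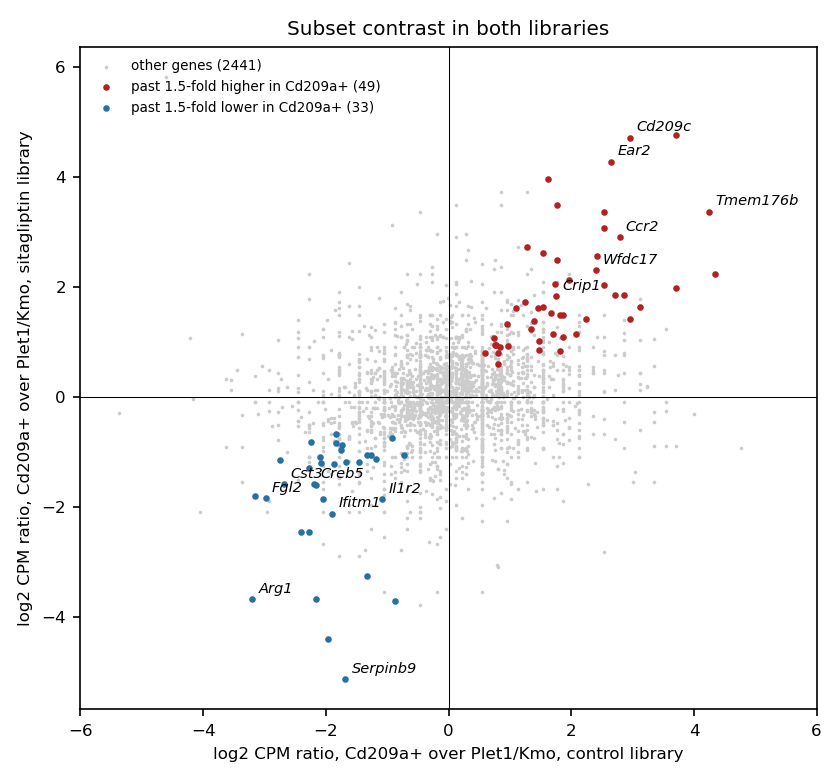
Each point is a gene without mixed barcodes, at its log2 CPM ratio of Cd209a+ over Plet1/Kmo barcodes in the control library (horizontal, 14 and 11 barcodes) and the sitagliptin library (vertical, 18 and 18 barcodes); genes with 3 or fewer UMIs in both subsets of a library are not drawn, and a count of 0 is set to 3 counts. The 49 red genes lie upper right and the 33 blue genes lower left by the rule that selected them; the labels mark genes named in the text.

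The spread within a subset was wide, as the plot of single barcodes shows for 8 genes. Median Cst3 per barcode was 16111 and 13268 CPM in Plet1/Kmo, 1974 and 2915 CPM in Cd209a+ and 3473 and 1395 CPM in the other barcodes. Median Il1r2 was 1311 and 1824 CPM in Plet1/Kmo, 0 and 179.9 CPM in Cd209a+, and 1048 and 0 CPM in the barcodes of neither subset. For Il1r2 the barcodes of neither subset thus stood near the Plet1/Kmo median under the control diet and at 0 under sitagliptin.

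**Figure D4:**
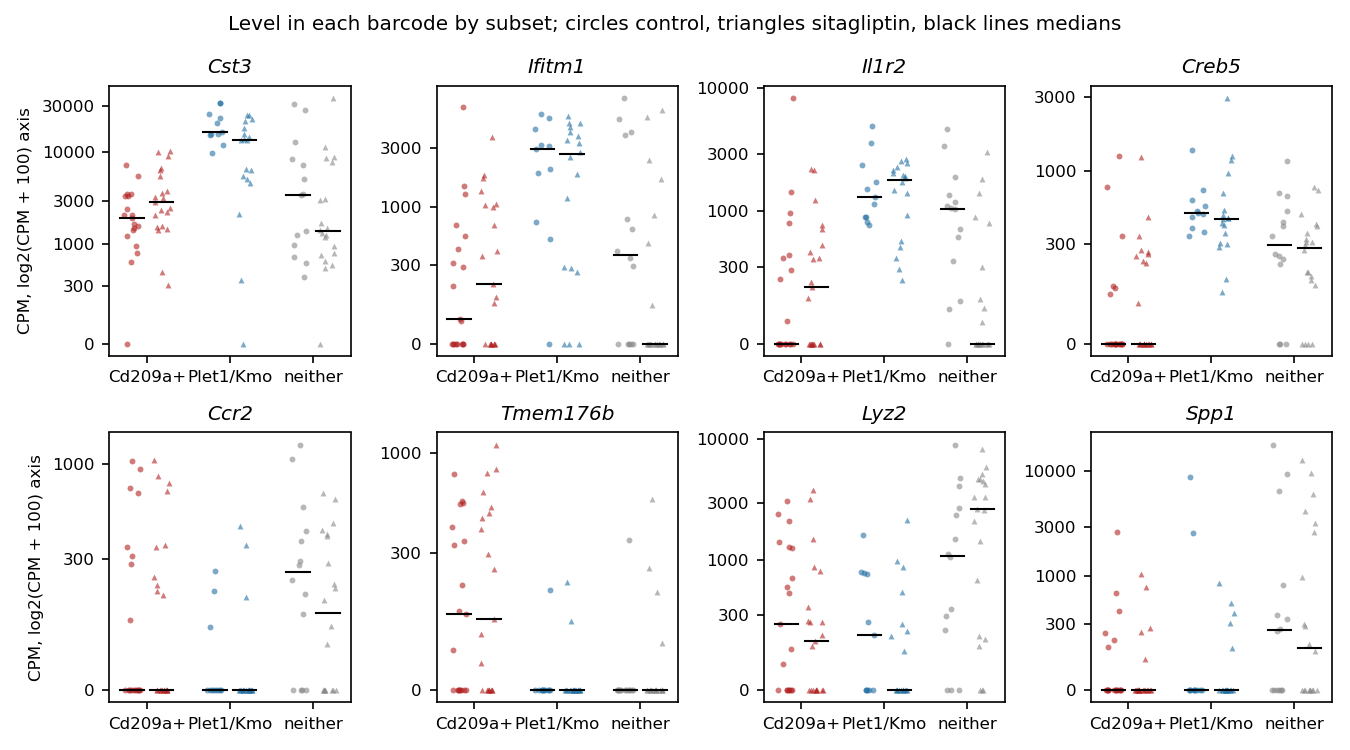
CPM per cDC2-like barcode on a log2(CPM + 100) axis for 8 genes, by subset and library; circles are control, triangles sitagliptin, black lines medians, mixed barcodes included. Cst3, Ifitm1, Il1r2 and Creb5 have their highest medians in Plet1/Kmo barcodes, Tmem176b in Cd209a+ barcodes, and Lyz2 in barcodes of neither subset, in both libraries.

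Within the cDC2-like barcodes, the diets were compared gene by gene as CPM ratios, sitagliptin over control, to describe these cells on a diet with a DPP4 inhibitor. Of 4708 genes with 20 or more UMIs, 4.25% (200) were at least 1.5-fold higher with an interval above 1 and 6.56% (309) lower. Without mixed barcodes the shares were 4.40% (176) and 4.08% (163) of 3997 genes. With a scaling by trimmed mean of M-values (TMM), which moved the median of all genes from -0.040 to 0.085 on the log2 scale, 316 were higher and 207 lower, so the balance of directions turns with the scaling. Within Cd209a+ barcodes 7.98% of 2444 genes were higher and 8.51% lower, and within Plet1/Kmo barcodes 4.66% of 1417 were higher and 5.43% lower. The 12 highest and 12 lowest genes by the interval bound nearest to 1 were examined.

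Chemokine genes had the highest median of the lists. Of 16 measured, 8 were past the fold higher and 2 lower, with a median log2 ratio of 0.63 beside -0.040 over all genes; without mixed barcodes it was 8 and 4, with a median of 0.66. Over the same genes in all other barcodes of the libraries the median was 0.079. Ccl6, a monocyte chemoattractant, was at 441 CPM in control and 905 CPM in sitagliptin, a ratio of 2.05 (1.67 to 2.53), and was found in 19 of 44 control and 29 of 59 sitagliptin members. In the sitagliptin library it stood lower in the 2 subsets, at 562 CPM in Cd209a+ and 115 CPM in Plet1/Kmo barcodes. Ccl4, a chemokine that draws T cells and monocytes, had a ratio of 2.52 (1.61 to 4.08) from 7 of 44 control and 11 of 59 sitagliptin members. The sitagliptin barcodes with most Ccl4, at 28, 24 and 20 of the 97 UMIs outside mixed barcodes, were of neither subset. Cxcl10, a CXCR3 ligand and known DPP4 substrate, had a ratio of 1.92 (1.34 to 2.79). The higher genes sat in few barcodes each, Ccl6 being the most widespread of them.

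The other chemokines past the fold higher were Ccl3, Ccl7, Ccl9, Cxcl3 and Ccl24. Ccl24, an eosinophil chemokine, rested on 2 control UMIs and 134 sitagliptin UMIs (43.5, 11.8 to 363), of which 133 lay in barcodes of neither subset. Cxcl3, a neutrophil chemokine, rested on 1 and 41 UMIs (26.6, 4.51 to 1076). On the lower side, Cxcl9, another CXCR3 ligand, had a ratio of 0.635 (0.473 to 0.853), and Cxcl1, a neutrophil chemokine, 0.184 (0.118 to 0.278), from 6 of 44 control and 5 of 59 sitagliptin members. Of 106 control Cxcl1 UMIs 53 lay in 1 member, and leaving it out moved the ratio to 0.367; without mixed barcodes 24 of 26 control UMIs lay in 1 member (0.283, 0.137 to 0.562). Ccl17, a gene of the rule, had 1.24 (1.02 to 1.52) and Ccl22 0.587 (0.298 to 1.15), neither past the fold with all barcodes. Without mixed ones Ccl17 was at 1.02 (0.840 to 1.25) and Ccl22 at 0.476 (0.242 to 0.929).

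Type I interferon response genes had the lowest median. Of 14 measured, 8 were past the fold lower in the sitagliptin library and 1 was higher; the median log2 ratio was -0.70. Without mixed barcodes, of 13 genes 2 were past the fold higher (Ifi27l2a and Oasl1) and 4 lower (among them Ddx58, Ifit2 and Oasl2), and the median was -0.46. Isg15 (0.726, 0.566 to 0.933), Irf7 (0.647, 0.292 to 1.46) and Bst2 (0.911, 0.623 to 1.35), the last a plasmacytoid dendritic cell gene, were then no longer past the fold. In all other barcodes the median of the list was -0.12. Of the mixed barcodes, 4 of 5 in the control library carried stroma RNA and 4 of 4 in the sitagliptin library plasmacytoid dendritic cell RNA, and the part of these cells in the difference with all barcodes was not tested.

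Immediate early genes, which also respond to tissue dissociation, were lower as a group: 0 of 17 were past the fold higher and 9 lower, with a median of -0.60. Without mixed barcodes 3 remained lower, Fos, Ier3 and Zfp36, and the median was -0.25. Fos, a subunit of AP-1, was then at 0.546 (0.471 to 0.634). In T cell barcodes Fos was at 556 CPM in control and 326 CPM in sitagliptin, so it was lower there too. Over the 17 genes the median in all other barcodes was -0.13, with 2 past the fold lower. Jun, the partner of Fos, moved from 0.410 (0.336 to 0.499) with all members to 1.07 (0.779 to 1.48) without mixed barcodes. The low ratio of Jun over all members was thus not seen without the mixed barcodes. It remained in Cd209a+ barcodes without the mixed ones (0.529, 0.336 to 0.837), while Plet1/Kmo barcodes went the other way (2.44, 1.30 to 4.92).

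Among the antigen presentation lists, MHC class II had 0 of 14 genes past the fold and a median of 0.049. H2-Ab1, a class II beta chain, had a ratio of 1.17 (1.07 to 1.27), and Cd74 0.959 (0.928 to 0.990). Without mixed barcodes H2-Ab1 stood at 1.01 (0.923 to 1.11) and Cd74 at 0.858 (0.830 to 0.888). For MHC class I, 0 of 14 were higher and 2 lower, the regulator Nlrc5 and Psmb9 (0.597, 0.452 to 0.787), with a median of -0.27; without mixed barcodes Nlrc5 was no longer past the fold. Costimulation and maturation genes had 1 of 14 past the fold: Cd274, which encodes the checkpoint ligand PD-L1, at 222 CPM in control and 381 CPM in sitagliptin (1.72, 1.27 to 2.34). It was found in 24 of 44 control and 41 of 59 sitagliptin members, and without mixed barcodes its ratio was 1.69 (1.23 to 2.36), and Ccl22 was then lower. In all other barcodes it was 0.980. Cd86, the CD28 ligand, stood at 1.04 (0.830 to 1.30).

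C-type lectins had 2 of 15 genes past the fold higher and 0 lower, with a median of 0.16. Without mixed barcodes the median was 0.026, and Clec4n, the lectin Dectin-2, was past the fold lower (0.575, 0.470 to 0.704). In all other barcodes the same 15 genes had a median of 0.43, also with 2 higher and 0 lower, so the shift was not particular to the members. Clec4e, the glycolipid receptor Mincle, was at 32.3 CPM in control and 167 CPM in sitagliptin (5.19, 2.59 to 11.8) and was found in 7 of 44 control and 21 of 59 sitagliptin members (15.9% and 35.6%; 9.09% and 10.2% after thinning to 2000 UMIs). T cell barcodes, which should lack it, held it unthinned in 19.8% and 12.3%, at 99.5 and 82.1 CPM. The control members stood below this background and the sitagliptin members above it, in unthinned share and in CPM. The unthinned shares differ in depth, the sitagliptin members having a median of 6193 UMIs and the T cell barcodes 3737. Of 72 sitagliptin UMIs of Clec4e, 46 lay in barcodes of neither subset, 16 of them in 1 barcode. Mrc1 was at 219 CPM in control and 388 CPM in sitagliptin (1.78, 1.32 to 2.42), and was 1.44 in all other barcodes.

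Dendritic cell transcription factors and growth factor receptors had a median of 0.42 over 19 genes, with Irf4 (2.08, 1.14 to 3.99) and Nfil3 (1.59, 1.08 to 2.38) past the fold higher and Klf4 (0.510, 0.342 to 0.757) lower. Without mixed barcodes 0 were past it, Irf4 standing at 1.73 (0.933 to 3.40). Glycolysis and hypoxia genes had 1 of 19 higher, the hexokinase gene Hk2 (2.38, 1.32 to 4.53), and 5 lower, among them Aldoa (0.617, 0.518 to 0.735), with a median of -0.32; without mixed barcodes 1 was higher and 3 lower. Cell cycle genes had 0 of 12 higher and 2 lower, and 0 of 8 and 1 without mixed barcodes. The kynurenine list, with 4 measured genes, had 1 lower, the tryptophanyl-tRNA synthetase gene Wars, and 0 of 3 without mixed barcodes; Kmo itself stood at 1.24 (0.733 to 2.15).

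The interferon gamma list had 2 of 16 genes higher, Cd274 and Cxcl10, and 4 lower, Cxcl9, Gbp2, Gbp7 and Iigp1, with a median of -0.21 (0.0087 without mixed barcodes). Without the mixed barcodes Gbp2 turned to 1.33 (0.976 to 1.83) and Gbp7 stood at 0.815 (0.450 to 1.51), so Cxcl9 and Iigp1 alone were lower. The list around DPP4, its relatives and substrates had 3 of 10 higher, the chemokines Ccl3, Ccl4 and Cxcl10, and 1 lower, Cxcl9; without mixed barcodes Ccl22 and Prep were lower too. Of cytokine genes 0 of 8 were higher and 1, Osm, lower; Il1b, the interleukin-1 beta gene, stood at 3606 CPM in control and 4167 CPM in sitagliptin (1.16, 1.07 to 1.25). Without mixed barcodes Il1b stood at 0.999 (0.922 to 1.08), and Il1r2 was past the fold lower besides Osm. Of chemokine receptors 0 of 5 were past the fold, Ccr2 standing at 0.991 (0.693 to 1.43); without mixed barcodes 1 of 4 was lower. Of 13 lipid and lysosome genes 1 was higher, the scavenger receptor gene Cd36 (2.52, 1.19 to 5.97, from 6 of 44 control and 8 of 59 sitagliptin members). Without mixed barcodes the lysosome genes Cd68 and Lamp1 were lower. For chemokine receptors, cytokines and cell cycle genes, the medians with all members were 0.44, 0.11 and -0.38. In all other barcodes they were 0.57, 0.29 and -0.28.

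**Figure D5:**
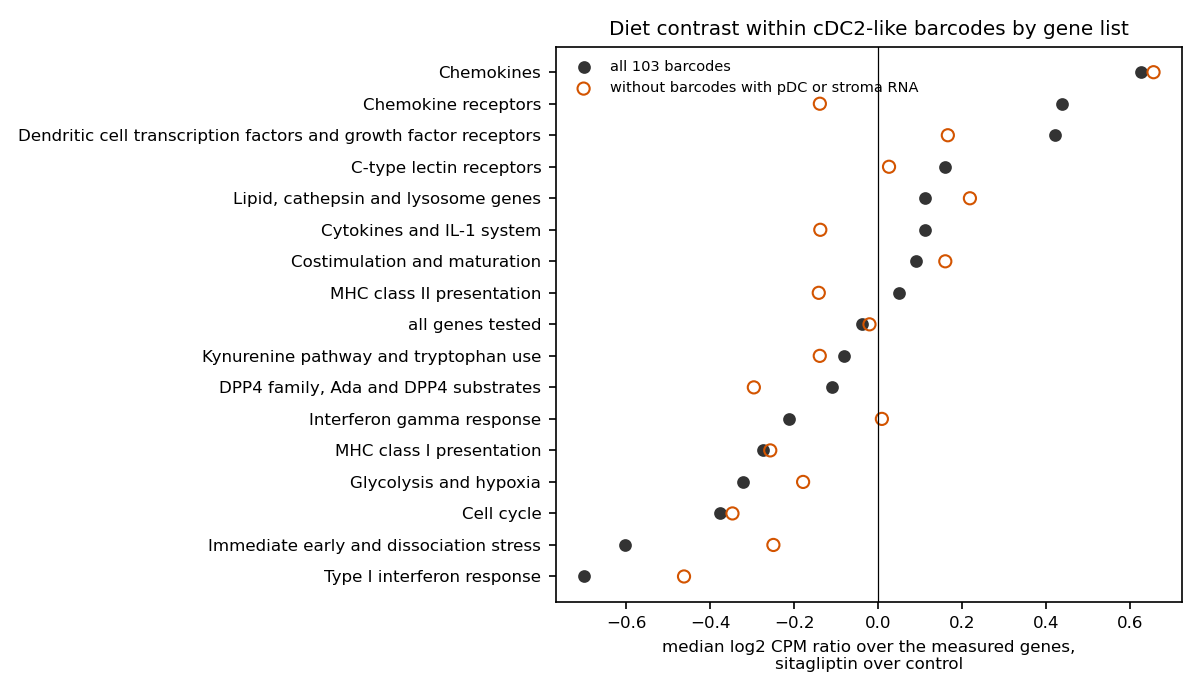
Median log2 CPM ratio, sitagliptin over control, over the measured genes of each list, with all 103 cDC2-like barcodes (filled) and without the 9 barcodes with plasmacytoid dendritic cell (pDC) or stroma RNA (open). Chemokines stand highest and type I interferon genes lowest in both, and the medians of the cytokine, chemokine receptor, interferon gamma and MHC class II lists change sign without the mixed barcodes.

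Of the 12 genes ranked highest by diet, several lay in few barcodes or were higher in all other barcodes too. Lyz1, near identical to Lyz2, had 1 control UMI and 118 sitagliptin UMIs in 5 members (76.5, 13.5 to 3048). Zbed5, a transposon-derived gene, was found in 1 of 44 control and 28 of 59 sitagliptin members (31.8, 5.44 to 1281), and its ratio in all other barcodes was 69.9. Cdk8, a Mediator kinase, was at 2.52 (2.16 to 2.94), but 286 of 838 sitagliptin UMIs lay in 1 barcode; without it the ratio was 1.66, and in all other barcodes 2.24.

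Pet100 and Tmtc2 were more widely spread. Pet100, a chaperone of cytochrome oxidase assembly, was found in 4 of 44 control and 26 of 59 sitagliptin members (6.97, 2.53 to 26.7; 1.85 in all other barcodes), and T cell barcodes held it in 14.4% and 26.2%. Tmtc2, an endoplasmic reticulum protein, was found in 13 of 44 control and 31 of 59 sitagliptin members (3.68, 2.11 to 6.85; 1.27 in all other barcodes). Arg1, arginase, was at 409 CPM in control and 1114 CPM in sitagliptin (2.73, 2.22 to 3.37), from 9 of 44 control and 18 of 59 sitagliptin members, and was lower in Plet1/Kmo barcodes (0.414) while higher in barcodes of neither subset (2.89). Of its 479 sitagliptin UMIs, 453 lay in barcodes of neither subset, 115 of them in 1 barcode. T cell barcodes, which should lack Arg1, held 496 and 177 CPM of it, so the control level in the members is within that background. Retnla, Ear2, Plcb1, Cxcl3 and Ccl24 complete the 12.

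Of the 12 lowest by diet, Bgn, Sparc, Crip2, Fstl1, Nedd4 and Tafa1 lay mostly in the 5 mixed control barcodes: Nedd4 had 122 control UMIs with them and 2 without, and Sparc, a matrix protein, 54 and 3. Ly6c1 (0.0998, 0.0345 to 0.237), Klf2 (0.179, 0.117 to 0.267), Vcan (0.238, 0.145 to 0.377) and Ier2 (0.300, 0.210 to 0.424) were low with all barcodes. Of 116 control UMIs of Klf2, a quiescence factor, 13 lay outside the mixed barcodes, and of 39 UMIs of Ly6c1, 2. Without the mixed ones Vcan turned to 2.21 (0.810 to 7.49) and Ier2 stood at 0.596 (0.354 to 1.01). Iigp1, an interferon-inducible GTPase, was at 0.151 (0.0755 to 0.279) and 0.297 (0.138 to 0.612) without them. A ranking without the mixed barcodes, made after seeing the data, put other genes lowest. Il1r2 was found in 30 of 39 and 39 of 55 such members (0.570, 0.482 to 0.675; 1.07 in all other barcodes), Ass1, argininosuccinate synthase, in 29 and 38 (0.437, 0.347 to 0.549; 0.861), and Plet1, a gene of the rule, in 11 and 12 (0.350, 0.223 to 0.544; 1.36). Spp1 also ranked low (0.442, 0.391 to 0.499), with 293 of 577 control UMIs in 1 barcode.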

How the data were processed

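Gene by barcode matrices of UMI counts were deposited for 2 libraries, 1 per diet; the authors' values are raw counts, per the file headers whole numbers for 32285 gene identifiers, and no barcode in them has fewer than 2001 UMIs. Aligner and genome build: not given in the sources used here. Counts of identifiers with the same symbol were summed, which left 32245 genes. Library depth was 64139749 UMIs in control and 76788699 in sitagliptin. The members, gene lists and ranking rules were chosen with earlier results of these data known, and the leaving out of mixed barcodes, shared barcodes, deepest members or single members, and the limit to the 2 subsets, were chosen after seeing the data.

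UMIs were summed per library and population and divided by their total (CPM). Levels have exact Poisson intervals and ratios exact conditional binomial ones, at 95% (Katz log intervals for ratios of shares); a count of 0 is set to 3 counts in a ratio. Past the fold means at least 1.5-fold (2-fold between populations) with an interval that leaves out 1, over genes with 20 or more UMIs. Named genes had 40 or more UMIs and 50 CPM or more in the higher group, ranked by the interval bound nearest to 1: 12 a direction for diets, 10 for subsets and 6 for populations. Shares of subsets were also taken after thinning to 2000 UMIs. Scrublet (scanpy 1.11.5) marked 0 barcodes at its own threshold, so it had not worked; the 6% of barcodes with the highest scores held 0 members, and no doublets were removed. Items withheld for evaluation are not reported here. The ratios were tested on simulated data. Python 3.11.15, numpy 2.4.6, scipy 1.17.1, pandas 2.3.3, R 4.3.3 and edgeR 4.0.16 (TMM factors only, 1.04 and 0.958) were used.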

Additional observations from a re-analysis of the deposited data

Results flagged for a closer look

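For 7 genes of the lists the ratio of sitagliptin over control was past the fold in opposite directions in the Cd209a+ and the Plet1/Kmo barcodes. Over all genes tested, 7.98% of 2444 were higher and 8.51% lower in Cd209a+ barcodes. In Plet1/Kmo barcodes 4.66% of 1417 were higher and 5.43% lower. How many of all genes went in opposite directions was not counted, so nothing is read from the number of such genes. With 1 library per diet the difference between the subsets was not tested. No Plet1/Kmo barcode was mixed, so the Plet1/Kmo ratios are the same with and without mixed barcodes.

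Of these, 4 remained past the fold on both sides without mixed barcodes. Ccl6, a monocyte chemoattractant, had a ratio of 2.06 (1.37 to 3.17) in Cd209a+ and 0.331 (0.152 to 0.684) in Plet1/Kmo barcodes, and 1.97 (1.04 to 4.05) in Cd209a+ barcodes without the mixed ones. Cxcl9, a CXCR3 ligand, had a ratio of 4.36 (2.11 to 10.1) in Cd209a+ and 0.536 (0.288 to 0.985) in Plet1/Kmo barcodes, and 21.0 (3.59 to 846) in Cd209a+ barcodes without the mixed ones. The last ratio rests on 1 control UMI. Cxcl9 was found in 4 control and 5 sitagliptin Cd209a+ barcodes. Hmgb2, a chromatin protein of dividing cells, had a ratio of 0.469 (0.303 to 0.717) in Cd209a+ and 2.22 (1.19 to 4.37) in Plet1/Kmo barcodes, and 0.239 (0.119 to 0.463) in Cd209a+ barcodes without the mixed ones. Jun, a subunit of AP-1, had a ratio of 0.308 (0.239 to 0.394) in Cd209a+ and 2.44 (1.30 to 4.92) in Plet1/Kmo barcodes, and 0.529 (0.336 to 0.837) in Cd209a+ barcodes without the mixed ones.

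For the other 3, the ratio in Cd209a+ barcodes was no longer past the fold without the mixed barcodes. Clec4n, the lectin Dectin-2, had a ratio of 2.84 (1.37 to 6.44) in Cd209a+ and 0.423 (0.286 to 0.619) in Plet1/Kmo barcodes, and 2.17 (0.946 to 5.79) in Cd209a+ barcodes without the mixed ones. Itgam, which encodes CD11b, had a ratio of 2.09 (1.25 to 3.59) in Cd209a+ and 0.408 (0.189 to 0.846) in Plet1/Kmo barcodes, and 1.43 (0.786 to 2.75) in Cd209a+ barcodes without the mixed ones. Gbp2, an interferon-induced GTPase, had a ratio of 0.185 (0.116 to 0.286) in Cd209a+ and 2.07 (1.21 to 3.68) in Plet1/Kmo barcodes, and 0.852 (0.393 to 1.96) in Cd209a+ barcodes without the mixed ones.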

How the results depend on the processing

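No paired analysis was possible because each diet has 1 library. Shares of members and subsets moved by less than their counting intervals under every alternative that gave one; thinning every barcode before the rule left 15 control and 29 sitagliptin members. The number of genes at least 1.5-fold higher with sitagliptin, 200, was 316 with TMM scaling and 75 with members thinned to 2000 UMIs. The number lower, 309, was 69 with thinned members, 133 with C1q genes and Apoe at 0, 136 with Flt3 required, 163 without mixed barcodes, 158 without the 3 deepest members per library, 172 with at least 50 UMIs and 519 with at least 1 UMI. Between the subsets, 107 higher and 83 lower became 23 and 26 with C1q genes and Apoe at 0, 49 and 33 without mixed barcodes, and 11 and 12 with members thinned and summed.

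Signs turned for the median of all genes, to 0.040 with C1q genes and Apoe at 0, 0.10 with Flt3 required and 0.085 with TMM (log2 of sitagliptin over control, as in the next sentence). They turned for Iigp1 (0.32 with C1q genes and Apoe at 0), Arg1 (-0.058 with Flt3 required and -1.02 in the 2 subsets alone), Bgn and Vcan (0.072 and 1.14 without mixed barcodes) and Tafa1 (0.054 without the member with most of it). In log2 of Cd209a+ over Plet1/Kmo, Nedd4 in the sitagliptin library was -0.43 with C1q genes and Apoe at 0, -0.087 without mixed barcodes and -0.52 without the member with most of it. Hist1h1b there was -0.94 without mixed barcodes and -1.37 without that member, and Ccn1 and Cavin3 in the control library were -0.37 each with thinned members. The cause was not tested, except that stricter rules and thinning leave fewer UMIs. The mean of single-barcode CPM gives no interval and so no count past the fold. Depth limits the members: a gene at 3 UMIs in all control members stands at 10.8 CPM.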

Other observations

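Ass1, argininosuccinate synthase of the arginine pathway, had a median per barcode of 937 and 468 CPM in Plet1/Kmo, 1041 and 276 CPM in barcodes of neither subset and 0 and 0 CPM in Cd209a+ barcodes. It had a UMI in 11 of 11 and 15 of 18 Plet1/Kmo and 9 of 19 and 8 of 21 Cd209a+ barcodes, so the subsets overlapped; the gene was chosen after its values were seen.

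Mt2, a metallothionein that binds zinc and copper, was among the genes ranked highest by diet without the mixed barcodes, with 3 control UMIs in 3 of 39 members and 49 sitagliptin UMIs in 18 of 55 members (8.59, 2.77 to 43.1).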
